A study of Mus musculus with 12 samples.

Results

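The cathepsin proteases are the enzymes that break down proteins inside the lysosome, the acidic compartment in which cells degrade their own material and what they take up. The 10 cathepsin genes described here are Ctsa, Ctsb, Ctsc, Ctsd, Ctsf, Ctsh, Ctsk, Ctsl, Ctss and Ctsz. They were chosen by gene symbol, as 10 of the 16482 genes of the count table, and all 10 were among the 12623 genes tested. RNA came from 12 whole-brain samples of C57BL/6 mice and was counted by MARS-seq adapted to bulk tissue, in which the 3' ends of transcripts are tagged. In the CBE+GZ-667161 group, 4 samples of postnatal day 40 came from mice given conduritol B epoxide (CBE), an inhibitor of the lysosomal enzyme glucocerebrosidase used to model Gaucher disease, together with GZ-667161, an inhibitor of glucosylceramide synthase that enters the brain. In the CBE group, the mice were given CBE without GZ-667161, and 2 samples were of day 40 and 2 of day 34. In the PBS group, 4 samples of day 40 came from mice given the vehicle. The labels name no genetic alteration in any group, and they do not say that each sample was a separate mouse, so the p-values measure the spread between samples as deposited.

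Cathepsins are made as inactive precursors, are delivered to the lysosome and are activated there by cleavage. They differ in chemistry: Ctsd encodes an aspartic protease, Ctsa a serine carboxypeptidase, and the other members encode cysteine proteases. Microglia and other myeloid cells hold much of the brain's Ctss, Ctsz, Ctsh and Ctsc, and these members were grouped as myeloid-enriched. Ctsd, Ctsl, Ctsa, Ctsf and Ctsb are made by nearly every brain cell and were grouped as widely expressed. Ctsk, known above all from bone-resorbing osteoclasts, stood in neither group.

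The CBE samples had higher RNA levels of most of these proteases than the PBS samples. Ctss was 5.91-fold higher, Ctsz 5.16-fold, Ctsd 4.09-fold, Ctsc 3.96-fold, Ctsh 3.22-fold, Ctsl 3.07-fold, Ctsa 1.87-fold and Ctsb 1.57-fold, while Ctsf and Ctsk did not pass the test. In the CBE+GZ-667161 samples, the first 7 of these were still above PBS. Over all genes tested, 6.95% passed as higher in CBE over PBS and 3.11% in CBE+GZ-667161 over PBS. In the direct comparison of CBE+GZ-667161 with CBE, no member passed the adjusted threshold, where 1.28% of all genes tested did. The fitted values of 9 of 10 members lay below 0 there, as did those of 48.8% of all genes tested.

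The libraries held between 1753626 and 6499257 counts, and the 2 CBE samples of day 34 had the lowest totals. Xist, an RNA of the inactive X chromosome, stood at 7.96 to 25.7 CPM (counts relative to library size) in CBE+GZ-667161 replicates 2, 3 and 5 and PBS replicates 4 and 5, and at 0.555 CPM or less in the other samples, all 4 CBE samples among them. Both comparisons that use the CBE group are therefore unbalanced for Xist. With Xist as a covariate, 8 members were still higher in CBE over PBS. Over all genes, 37 were lower in CBE+GZ-667161 over CBE with it, and 105 without it. No pair of replicates agreed within sampling noise, with chi-square values of 3.29 to 12.2 per degree of freedom. Summed markers of neurons ran from 5938 to 7002 CPM in CBE+GZ-667161, from 5207 to 6192 CPM in CBE and from 7059 to 7243 CPM in PBS, and 6 of the 10 neuron genes fell in CBE over PBS. Of all genes tested, 4.04% passed as lower there.

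The members are spread over 7 chromosomes of the mm10 build, in GENCODE coordinates. Ctss lies at chr3:95526786-95556403 and Ctsk at chr3:95499256-95509362, both on the plus strand, with 17.4 kb and no annotated gene between them. Ctsz lies at chr2:174427493-174439039 on the minus strand and Ctsa at chr2:164832873-164841032 on the plus strand. Ctsc lies at chr7:88278085-88310888 on the plus strand and Ctsd at chr7:142375911-142388038 on the minus strand. Ctsh lies at chr9:90054152-90076089, Ctsb at chr14:63122462-63145923 and Ctsf at chr19:4855130-4860918, all on the plus strand, and Ctsl lies at chr13:64359337-64370890 on the minus strand.

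The stretches before the start sites are shown for 3 members that rose in both CBE-treated groups, Ctss, Ctsc and Ctsd, and for Ctsf, which passed the test in neither. They are the 250 bases before the start that RefSeq gives (GRCm38.p6), written 5′ to 3′ on the strand of the gene. The RefSeq starts of Ctsd, Ctsf and Ctsl lie within the GENCODE genes given above, so the windows of Ctsd and Ctsf lie partly inside the gene and that of Ctsl wholly inside it. Capitals mark matches, on either strand, to 4 motifs. CACGTG is the core of the element read by TFEB and TFE3, GAGGAA is the core of PU.1 sites, GAAA followed by any 2 bases and GAAA again is the repeat read by interferon regulatory factors, and TTCNNNGAA is the repeat read by STAT proteins. The windows are chr3:95526536-95526785 on the plus strand for Ctss, chr7:88277835-88278084 on the plus strand for Ctsc, chr7:142387828-142388077 on the minus strand for Ctsd, and chr19:4854915-4855164 on the plus strand for Ctsf.
Ctss: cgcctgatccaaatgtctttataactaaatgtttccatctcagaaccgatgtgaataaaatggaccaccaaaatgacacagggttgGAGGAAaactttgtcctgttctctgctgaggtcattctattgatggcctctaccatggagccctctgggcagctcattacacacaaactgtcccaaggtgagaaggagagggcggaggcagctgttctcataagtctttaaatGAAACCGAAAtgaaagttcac
Ctsc: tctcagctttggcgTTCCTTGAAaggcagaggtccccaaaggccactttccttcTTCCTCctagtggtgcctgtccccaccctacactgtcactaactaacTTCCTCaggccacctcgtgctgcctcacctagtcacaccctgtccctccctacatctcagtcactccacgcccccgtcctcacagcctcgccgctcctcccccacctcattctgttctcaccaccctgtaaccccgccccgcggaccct
Ctsd: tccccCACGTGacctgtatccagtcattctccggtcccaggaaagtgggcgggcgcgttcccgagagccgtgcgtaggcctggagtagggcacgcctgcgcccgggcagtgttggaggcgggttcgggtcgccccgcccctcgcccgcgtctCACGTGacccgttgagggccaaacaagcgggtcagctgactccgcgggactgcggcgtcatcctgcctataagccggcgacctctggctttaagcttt
Ctsf: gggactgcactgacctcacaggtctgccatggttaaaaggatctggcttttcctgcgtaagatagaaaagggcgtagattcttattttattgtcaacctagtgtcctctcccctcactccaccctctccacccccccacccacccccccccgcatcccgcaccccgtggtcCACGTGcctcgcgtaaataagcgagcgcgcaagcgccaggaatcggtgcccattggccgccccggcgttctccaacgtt

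The table held windows for 8 of the 10 members, 9 windows in all, with 2 for Ctsa; Ctsb and Ctsh had no entry. CACGTG stood at 2 places in the Ctsd window, 245 and 98 bases before the start, and once each in Ctsf (79 bases before), Ctsl (236 bases before) and 1 of the windows of Ctsa (12 bases before), the one that lies inside the GENCODE gene. It occurred in 6.02% of the 32851 windows of this length. GAGGAA stood in Ctss (164 bases before), Ctsc (196 and 149 bases before) and Ctsk (233 and 58 bases before), and in 23.3% of all windows. The GAAA repeat stood in Ctss alone among the members, 21 bases before the start, and in 2.98% of all windows, and TTCNNNGAA in Ctsc alone, 236 bases before, and in 7.02% of all windows. The Ctsz window held none of the 4. Of the 4 members with CACGTG, Ctsd was 4.09-fold, Ctsl 3.07-fold and Ctsa 1.87-fold higher in CBE than in PBS, and Ctsf did not pass the test. These are matches of letters and say nothing of what binds there.

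Of the myeloid-enriched members, Ctss encodes a cysteine protease that stays active at neutral pH and trims the invariant chain in cells that present antigen. It stood at 460, 737, 786 and 740 CPM in CBE+GZ-667161 replicates 2 to 5, at 818, 991, 684 and 798 CPM in CBE replicates 2, 3, 4 and 6, and at 141, 141, 147 and 129 CPM in PBS replicates 2 to 5. Library sizes for CPM were scaled by TMM, and no length scaling was applied, since the method tags transcript ends. Every sample of both CBE-treated groups was over 3 times the highest PBS sample, and the CBE+GZ-667161 samples overlapped the CBE samples. Against PBS, Ctss rose by 2.56 ± 0.16 on the log2 scale in CBE (SE; edgeR's quasi-likelihood test, Benjamini-Hochberg adjusted p = 7.1e-08), which was the largest fold change of the 10 members. In CBE+GZ-667161 it rose by 2.29 ± 0.16 over PBS (adjusted p = 3.4e-07). Between CBE+GZ-667161 and CBE the log2 difference was -0.27 ± 0.15 (adjusted p = 0.38, 95% interval -0.59 to 0.04). In bulk tissue, more cells of a type and more RNA per cell cannot be told apart, and this holds for every level given here.

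Ctsz encodes a lysosomal carboxypeptidase, also called cathepsin X. Its level was 106, 175, 138 and 232 CPM in CBE+GZ-667161, 280, 284, 250 and 210 CPM in CBE, and 47.1, 57.0, 49.8 and 44.3 CPM in PBS. All samples given CBE lay above all PBS samples, and 1 CBE+GZ-667161 sample, replicate 5, lay within the CBE range while the other 3 lay below it. Ctsz rose by 2.37 ± 0.20 in CBE over PBS (edgeR adjusted p = 4e-07) and by 1.71 ± 0.19 in CBE+GZ-667161 over PBS (adjusted p = 2.8e-05), both on the log2 scale. CBE+GZ-667161 against CBE gave -0.66 ± 0.19 (adjusted p = 0.085), the lowest value of any member in that comparison.

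Ctsh encodes an aminopeptidase of the cysteine class. It averaged 53.1 ± 11.8 CPM in CBE+GZ-667161, 62.7 ± 10.1 CPM in CBE and 19.2 ± 3.56 CPM in PBS (SD, n = 4 each). The lowest sample given CBE, at 37.0 CPM, was above the highest PBS sample, at 23.6 CPM. Ctsh rose by 1.68 ± 0.19 in CBE over PBS (edgeR adjusted p = 1.5e-05) and by 1.44 ± 0.19 in CBE+GZ-667161 over PBS (adjusted p = 0.00011) on the log2 scale. Ctsc encodes dipeptidyl peptidase 1, which activates the serine proteases of immune cell granules. It was a low gene, at 12.5, 25.1, 13.8 and 16.9 CPM in CBE+GZ-667161, 21.0, 35.0, 21.0 and 17.2 CPM in CBE, and 5.82, 8.51, 3.35 and 5.08 CPM in PBS. With 275, 214 and 103 counts over the CBE+GZ-667161, CBE and PBS samples, its error was wider than that of the other 3, but the samples given CBE still lay apart from PBS. Ctsc rose by 1.99 ± 0.31 in CBE (edgeR adjusted p = 0.00033) and by 1.54 ± 0.30 in CBE+GZ-667161 (adjusted p = 0.0056), each over PBS. Between CBE+GZ-667161 and CBE, Ctsh differed by -0.24 ± 0.18 (adjusted p = 0.55) and Ctsc by -0.44 ± 0.28 (adjusted p = 0.46), with overlapping samples in both.

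Of the widely expressed members, Ctsd encodes the main aspartic protease of the lysosome, whose loss causes a neuronal ceroid lipofuscinosis. It was the most abundant cathepsin RNA in each of the 3 groups, at 968, 1397, 1487 and 2096 CPM in CBE+GZ-667161, 2266, 2649, 2006 and 1626 CPM in CBE, and 503, 545, 536 and 504 CPM in PBS. The PBS samples lay within a narrow band, while those of the other groups spread widely and overlapped each other. Ctsd rose by 2.03 ± 0.19 in CBE over PBS (edgeR adjusted p = 1.5e-06) and by 1.51 ± 0.19 in CBE+GZ-667161 over PBS (adjusted p = 6.1e-05). CBE+GZ-667161 against CBE gave -0.52 ± 0.18 (adjusted p = 0.16).

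Ctsl encodes a cysteine endopeptidase. It stood at 291, 399, 473 and 416 CPM in CBE+GZ-667161, 462, 513, 535 and 622 CPM in CBE, and 164, 190, 176 and 165 CPM in PBS. The 3 groups followed each other with PBS lowest and well apart, and CBE+GZ-667161 overlapped CBE in 1 sample, replicate 4. Ctsl rose by 1.62 ± 0.14 in CBE over PBS (edgeR adjusted p = 5.7e-07) and by 1.18 ± 0.14 in CBE+GZ-667161 over PBS (adjusted p = 3.6e-05), and CBE+GZ-667161 against CBE gave -0.43 ± 0.14 (adjusted p = 0.12). Ctsa, which encodes the carboxypeptidase that also holds the lysosomal sialidase and beta-galactosidase in a complex, stood at 176, 221, 253 and 249 CPM in CBE+GZ-667161, 286, 271, 314 and 289 CPM in CBE, and 154, 160, 169 and 139 CPM in PBS. It was the only member whose 3 groups did not overlap at all. Ctsa rose by 0.90 ± 0.12 in CBE over PBS (edgeR adjusted p = 8.5e-05) and by 0.53 ± 0.12 in CBE+GZ-667161 over PBS (adjusted p = 0.017), and CBE+GZ-667161 against CBE gave -0.37 ± 0.12 (adjusted p = 0.13). The call of Ctsa in CBE+GZ-667161 over PBS was lost without PBS replicate 5 (adjusted p = 0.068), CBE+GZ-667161 replicate 4 (adjusted p = 0.063) or CBE+GZ-667161 replicate 5 (adjusted p = 0.071).

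Ctsb encodes a cysteine protease that works as both an endopeptidase and a carboxypeptidase. It stood at 43.6, 33.8, 42.5 and 39.6 CPM in CBE+GZ-667161, 48.5, 55.0, 52.2 and 42.7 CPM in CBE, and 35.5, 31.7, 26.0 and 32.2 CPM in PBS. The lowest CBE sample was above the highest PBS sample, and the CBE+GZ-667161 samples overlapped both. Ctsb rose by 0.65 ± 0.14 in CBE over PBS (edgeR adjusted p = 0.0067). CBE+GZ-667161 against PBS gave 0.34 ± 0.14 (adjusted p = 0.29) and CBE+GZ-667161 against CBE gave -0.31 ± 0.14 (adjusted p = 0.29). The 3' end of Ctsb overlaps Fdft1 on the opposite strand by 774 bases, and Fdft1 itself had 14, 3 and 24 counts over the CBE+GZ-667161, CBE and PBS samples, too few to test. Ctsa shares its 3' end with Pltp (1515 bases) and Ctsz with Nelfcd (10 bases), both on the opposite strand. Pltp differed by -0.49 and Nelfcd by 0.23 in CBE over PBS on the log2 scale (adjusted p = 0.35 each). Neurl2 overlaps Ctsa by 584 bases away from the 3' end, on the opposite strand, and rose by 1.12 in CBE over PBS (adjusted p = 0.014). Gm49369 covers the 3' end of Ctsd on the same strand and has no row of its own in the count table. The sources used here do not say if counting was by strand, so reads of such pairs could be shared between them.

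Ctsf encodes a cysteine protease whose loss in people causes another neuronal ceroid lipofuscinosis. Its level was 57.9, 65.2, 62.2 and 83.7 CPM in CBE+GZ-667161, 77.6, 59.4, 97.0 and 74.5 CPM in CBE, and 61.1, 56.6, 70.8 and 59.2 CPM in PBS. The groups overlapped throughout, and the fitted log2 differences were 0.12 ± 0.15 for CBE+GZ-667161 over PBS (edgeR adjusted p = 0.85), 0.33 ± 0.15 for CBE over PBS (adjusted p = 0.20, 95% interval 0.0013 to 0.66) and -0.21 ± 0.15 for CBE+GZ-667161 over CBE (adjusted p = 0.53). Ctsk, which encodes a collagen-degrading protease, was at the low end. It stood at 5.68, 14.7, 14.0 and 5.35 CPM in CBE+GZ-667161, 8.08, 6.67, 10.9 and 14.2 CPM in CBE, and 5.82, 7.66, 5.45 and 4.31 CPM in PBS. Its samples were split within the CBE+GZ-667161 group, 2 near the PBS level and 2 above every PBS sample. The log2 difference was 0.81 ± 0.35 in CBE+GZ-667161 over PBS (adjusted p = 0.32) and 0.81 ± 0.37 in CBE over PBS (adjusted p = 0.18). The 95% intervals ran from 0.06 to 1.56 and from 0.03 to 1.59, the widest of the 10 members in each comparison, and Ctsk had the fewest counts of the 10 over all samples.

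**Figure D1:**
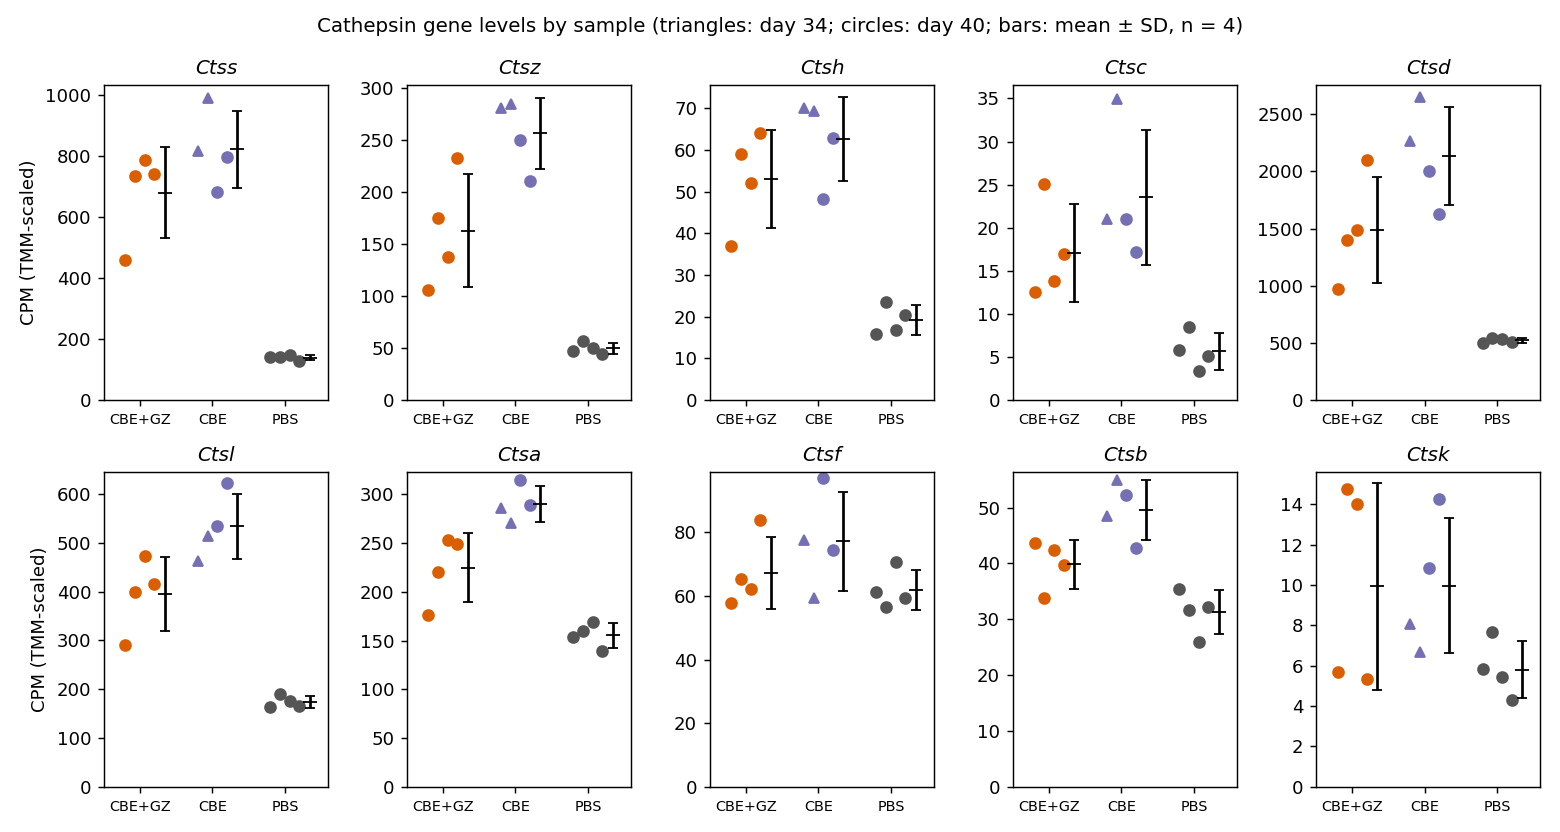
Level of each cathepsin gene in every sample, in CPM of the TMM-scaled library, with CBE+GZ-667161, CBE and PBS from left to right, triangles for samples of day 34, circles for day 40, and bars for the mean and SD of 4 samples. Ctss, Ctsz, Ctsh, Ctsc, Ctsd, Ctsl and Ctsa in both CBE-treated groups lie above every PBS sample, whereas the groups overlap for Ctsf and Ctsk.

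In CBE against PBS, 8 of the 10 members passed the test, all of them higher. Over all genes tested, 6.95% passed as higher and 4.04% as lower. The 8 members also showed no overlap between the CBE and PBS samples, as did 8.61% of all genes with CBE higher. The median log2 fold change of the members was 1.65, against -0.015 over all genes tested. All 4 myeloid-enriched members rose, with a median of 2.18 and a range of 1.68 to 2.56, and 4 of 5 widely expressed members rose, with a median of 0.90 and a range of 0.33 to 2.03. The split into these groups did not separate the responses: Ctsd, of the widely expressed group, stood above the myeloid-enriched Ctsc and Ctsh in fold change, and Ctsl, at 1.62, stood just under Ctsh, at 1.68. No difference between the groups of members was tested. With the day 40 CBE samples alone, the 8 calls remained, from 0.58 (adjusted p = 0.036) for Ctsb to 2.41 (adjusted p = 1.8e-06) for Ctss, and with the day 34 samples alone they ran from 0.73 (adjusted p = 0.019) for Ctsb to 2.72 (adjusted p = 3.3e-07) for Ctss.

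In CBE+GZ-667161 against PBS, 7 of 10 members rose, where 3.11% of all genes tested passed as higher and 0.333% as lower. The same 7 lay above PBS in every sample, as did 6.65% of all genes. The members' median log2 fold change was 1.31, against -0.00024 over all genes tested. Ctsb passed in CBE and not in CBE+GZ-667161, a pair of results that share the PBS samples and do not by themselves show a difference. The direct comparison of CBE+GZ-667161 with CBE, in which 1.28% of all genes passed in either direction and 0.832% as lower, called none of the 10 members with edgeR's quasi-likelihood test. At an unadjusted p under 0.05, 5 members were lower, namely Ctsz, Ctsl, Ctsa, Ctsd and Ctsb, as were 8.5% of all genes tested. DESeq2 called 1 member, Ctsz (-0.67, adjusted p = 0.027), and limma-voom called 0. The authors' deposited table comes from the same series and is not independent of these fits. In it, Ctsz was the only member called between these groups, with 0.67 for CBE over CBE+GZ-667161 (adjusted p = 0.044), and the numbers called against PBS were 8 for CBE and 7 for CBE+GZ-667161. The fitted value was below 0 for 9 of 10 members, where 48.8% of all genes lay below 0, and the members' median was -0.34. Ctsk lay at 0.00022 ± 0.34, and Ctsa was the only member lower in all CBE+GZ-667161 samples than in all CBE samples, as were 3.98% of all genes.

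**Figure D2:**
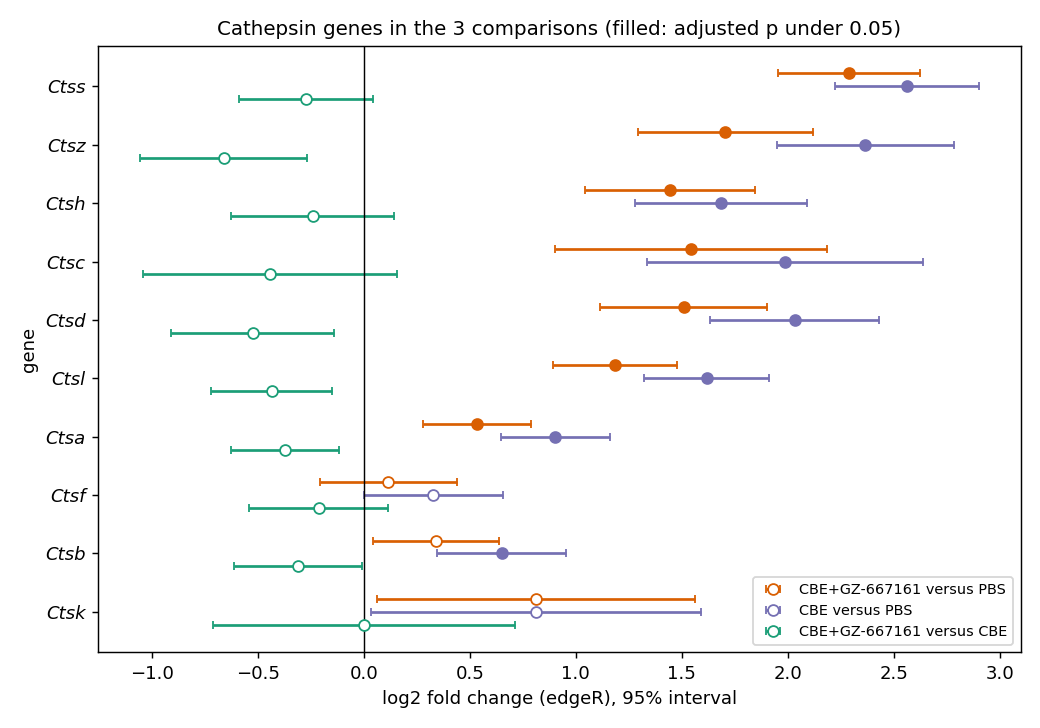
Fitted log2 fold change of each cathepsin gene with its 95% interval in CBE+GZ-667161 over PBS, CBE over PBS and CBE+GZ-667161 over CBE, filled where the edgeR adjusted p was under 0.05. The intervals against PBS lie far to the right of 0 for Ctss and Ctsz, and no symbol of the comparison of CBE+GZ-667161 with CBE is filled, with Ctsz lowest at -0.66.

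The comparison of CBE+GZ-667161 with CBE leaned on single samples. Summed over the 10 members, CBE+GZ-667161 replicates 2 to 5 held 2158, 3126, 3322 and 3944 CPM, CBE replicates 2, 3, 4 and 6 held 4337, 4933, 4019 and 3757 CPM, and PBS replicates 2 to 5 held 1133, 1221, 1199 and 1102 CPM. CBE+GZ-667161 replicate 2 was the lowest of its group for Ctss, Ctsz, Ctsh, Ctsc, Ctsd, Ctsl, Ctsa and Ctsf, and replicate 5 the highest for Ctsz, Ctsh, Ctsd and Ctsf. Without replicate 5, Ctsz (-0.87, adjusted p = 0.015) and Ctsd (-0.73, adjusted p = 0.033) were called lower than in CBE. Without replicate 2, the value was -0.50 (adjusted p = 0.17) for Ctsz and -0.36 (adjusted p = 0.31) for Ctsd. The values also differed with the age of the CBE samples. Against the day 40 CBE samples alone, the age that all CBE+GZ-667161 samples had, Ctsd differed by -0.28 (adjusted p = 0.47), Ctsz by -0.50 (adjusted p = 0.22) and Ctsl by -0.55 (adjusted p = 0.066). Against the day 34 samples, the values were -0.75 (adjusted p = 0.20) for Ctsd, -0.82 (adjusted p = 0.19) for Ctsz and -0.33 (adjusted p = 0.48) for Ctsl.

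Within the CBE group, the samples of day 40 and day 34 did not differ detectably in any member. edgeR's quasi-likelihood test, DESeq2 and limma-voom each called 0 of 10, and 0 had an unadjusted p under 0.05, where 0.613% of 13372 genes tested were called by edgeR. The 4 myeloid-enriched members had fitted values below 0, from -0.58 ± 0.39 for Ctsc to -0.31 ± 0.21 for Ctss. Ctsd differed by -0.46 ± 0.24 (adjusted p = 0.39, 95% interval -0.98 to 0.05), whereas Ctsl, at 0.22 ± 0.19, and Ctsk, at 0.74 ± 0.51, lay above 0. With 2 samples of each age, the intervals of the 9 members other than Ctsa reach beyond a log2 difference of 0.5 in at least 1 direction.

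The order of the cathepsin RNAs differed between the groups. In CBE+GZ-667161 and in CBE, the mean CPM fell in the order Ctsd, Ctss, Ctsl, Ctsa, Ctsz, Ctsf, Ctsh, Ctsb, Ctsc and Ctsk, and in PBS it fell in the order Ctsd, Ctsl, Ctsa, Ctss, Ctsf, Ctsz, Ctsb, Ctsh, Ctsk and Ctsc. Ctss thus stood behind Ctsd alone in both CBE-treated groups, and behind Ctsd, Ctsl and Ctsa in PBS. Neighbours whose samples overlapped in PBS were Ctsl with Ctsa, Ctsa with Ctss, Ctsf with Ctsz, and Ctsk with Ctsc. In CBE the overlapping neighbours were Ctsa with Ctsz, Ctsf with Ctsh, and Ctsh with Ctsb, and in CBE+GZ-667161 Ctss with Ctsl and Ctsc with Ctsk overlapped in addition.

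As shares of the counts of the 10 members within each sample, which need no scaling between libraries, the myeloid-enriched members made up 29.2 ± 2.16% in CBE+GZ-667161, 27.3 ± 1.70% in CBE and 18.4 ± 0.40% in PBS (SD, n = 4 each). The single values were 28.5, 31.8, 29.8 and 26.7% in CBE+GZ-667161, 27.4, 28.0, 25.0 and 29.0% in CBE, and 18.5, 18.8, 18.1 and 18.0% in PBS. Both CBE-treated groups lay well above PBS and overlapped each other. Ctss accounted for most of this, with 21.8 ± 2.31% in CBE+GZ-667161, 19.3 ± 1.81% in CBE and 11.97 ± 0.44% in PBS. Ctsd held the largest share in all 3, at 46.9 ± 4.20%, 49.8 ± 4.61% and 44.9 ± 0.60% in CBE+GZ-667161, CBE and PBS. The shares of Ctsa, at 7.29 ± 0.79% in CBE+GZ-667161, 6.90 ± 1.09% in CBE and 13.3 ± 0.64% in PBS, and of Ctsf, at 2.19 ± 0.35%, 1.85 ± 0.50% and 5.33 ± 0.52% in the same order, were smaller where the others had risen. The 10 members together took 0.220 to 0.400% of all counts in CBE+GZ-667161, 0.373 to 0.506% in CBE and 0.110 to 0.122% in PBS.

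**Figure D3:**
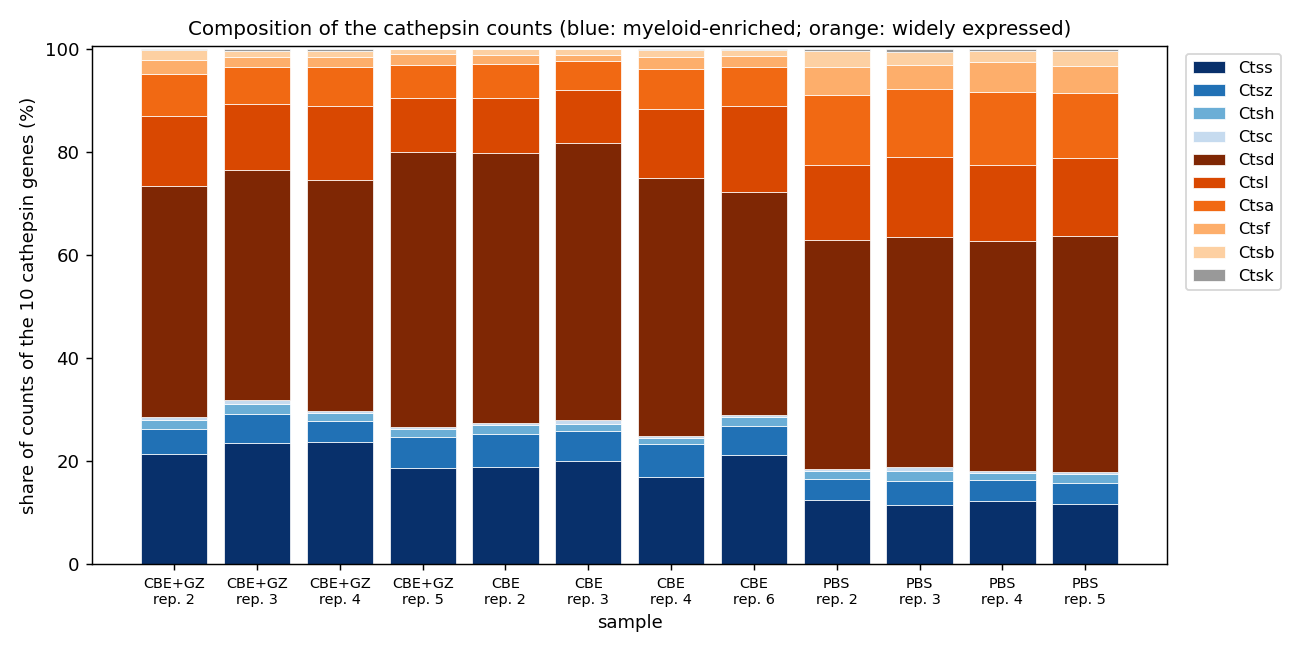
Share of the counts of the 10 cathepsin genes held by each gene in every sample, in percent, with the myeloid-enriched members in blue at the bottom and the widely expressed members in orange above. The blue part takes 26.7 to 31.8% in CBE+GZ-667161 and 25.0 to 29.0% in CBE, above the 18.0 to 18.8% in PBS.

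Markers of myeloid cells moved in the same samples. Over all genes tested, 6.95% passed as higher in CBE over PBS and 3.11% in CBE+GZ-667161 over PBS. Of the 11 tested genes of a homeostatic microglia list, 4 rose in CBE over PBS (Csf1r, Cx3cr1, Sall1 and Trem2, chosen for naming once their values had been seen, with a list median of 0.79; 8 rose with the day 34 CBE samples alone, 2 with those of day 40 and 7 without CBE replicate 6), and their summed level, with all 12 genes of the list, was 593 to 854 CPM in CBE+GZ-667161, 599 to 1156 CPM in CBE and 387 to 409 CPM in PBS. Of 10 pan-myeloid genes, such as those of complement C1q, all 10 rose in CBE over PBS (median 2.29) and all 10 in CBE+GZ-667161 over PBS (median 1.72), and they summed to 1849, 2837, 2882 and 3552 CPM in CBE+GZ-667161 replicates 2 to 5, against 3414 to 4850 CPM in CBE and 752 to 869 CPM in PBS. Of 17 genes of disease-associated microglia, 17 rose in CBE and 15 in CBE+GZ-667161, each over PBS. Border macrophage and monocyte genes, with Ms4a7 the 1 gene of 6 that rose in CBE over PBS, summed to 28.4 to 50.8 CPM in CBE+GZ-667161, 35.4 to 67.9 CPM in CBE and 23.2 to 36.8 CPM in PBS. T and NK cell genes summed to 3.41 to 27.3 CPM in CBE+GZ-667161, 4.90 to 28.5 CPM in CBE and 0.838 to 9.79 CPM in PBS. Their unscaled counts over the CBE+GZ-667161, CBE and PBS samples were 121, 96 and 53 for Cd4 and 28, 21 and 4 for Nkg7. In the same order they were 25, 6 and 3 for Cd8a and 10, 0 and 2 for Cd3d. Only 1 gene of this list had enough counts to test, and it did not pass in CBE over PBS. Neutrophil genes summed to 8.91 to 37.5 CPM in CBE+GZ-667161, 2.22 to 13.6 CPM in CBE and 2.91 to 31.7 CPM in PBS. Of 9 astrocyte genes, Aldh1l1, Aqp4, Gjb6, Slc1a3 and Sox9 rose in CBE over PBS, again chosen for naming once their values had been seen. Slc1a2, the gene of this list with the most counts in each group, passed in neither direction there, nor did Aldoc, Gja1 and S100b. The astrocyte list summed to 3837 to 4101 CPM in CBE+GZ-667161, 4139 to 4498 CPM in CBE and 3776 to 4398 CPM in PBS. Oligodendrocyte genes summed to 3586 to 8264 CPM in CBE+GZ-667161, 2942 to 6024 CPM in CBE and 5732 to 7096 CPM in PBS, and 0 of 8 passed in CBE over PBS with edgeR, with 6 at an unadjusted p under 0.05, while DESeq2 and limma-voom each called 1 lower. In CBE+GZ-667161 against CBE, the genes called lower were the astrocyte genes Slc1a3, Aldoc and Gjb6 (3 of 9), the disease-associated genes Spp1, Lgals3, Cd63 and Cd68 (4 of 17) and the pan-myeloid gene C1qc (1 of 10), where 0.832% of all genes tested were called lower; all were chosen for naming once their values had been seen. Without CBE replicate 4, or without CBE+GZ-667161 replicate 3 or 4, 0 genes of these 3 lists were called lower. Without CBE replicate 6 or CBE+GZ-667161 replicate 2, 1 and 2 disease-associated genes were, in that order, and 0 of the others, and the call of C1qc was also lost without CBE replicate 2 or 3. The pan-myeloid sum was lowest in CBE+GZ-667161 replicate 2 and highest in replicate 5 of that group, as was the sum of the cathepsins. Choroid plexus genes summed to 20.5 to 341 CPM in CBE+GZ-667161, 63.9 to 528 CPM in CBE and 17.2 to 113 CPM in PBS. Their highest samples were CBE+GZ-667161 replicate 2 and CBE replicate 4. Endothelial genes summed to 255 to 357, 230 to 284 and 257 to 314 CPM in the same order of groups. Fibroblast genes summed to 51.5 to 67.7, 43.1 to 128 and 49.4 to 83.6 CPM. The part of these cell markers in the cathepsin levels was not tested.

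Set against the summed homeostatic microglia markers of the same sample, several cathepsins still stood above PBS. The ratio of Ctss to these markers was 0.776, 0.906, 1.07 and 0.867 in CBE+GZ-667161, 0.867, 0.857, 1.09 and 1.33 in CBE, and 0.359, 0.347, 0.358 and 0.332 in PBS, a mean log2 difference of 1.36 for CBE+GZ-667161 over PBS and 1.55 for CBE over PBS. The ratio of Ctsd was 1.63, 1.72, 2.01 and 2.45 in CBE+GZ-667161, 2.40, 2.29, 3.19 and 2.71 in CBE, and 1.28, 1.34, 1.31 and 1.30 in PBS. All samples given CBE were above PBS for both genes, and for Ctsz and Ctsh as well. In CBE the ratio of Ctsc was also above PBS in all samples, whereas those of Ctsl, Ctsa, Ctsb, Ctsf and Ctsk overlapped PBS. In CBE+GZ-667161 the ratio of Ctsl was above PBS in all samples and those of Ctsa and Ctsf were below it. The homeostatic markers summed to 943 and 1156 CPM in the CBE samples of day 34 and to 629 and 599 CPM in those of day 40, and the ratios of the 9 members other than Ctsc were higher in both samples of day 40 than in both of day 34. Set against the pan-myeloid genes instead, Ctss was the only member above PBS in every sample of both groups, by 0.50 in CBE+GZ-667161 over PBS and 0.27 in CBE over PBS on the log2 scale, and Ctsd lay lower in every sample, by -0.31 in CBE+GZ-667161 over PBS and -0.27 in CBE over PBS. The direction also turned for other members whose mean ratio lay above PBS when set against the homeostatic list. With the pan-myeloid list, Ctsh stood at -0.31 in CBE+GZ-667161 and -0.57 in CBE, Ctsl at -0.60 and -0.67, and Ctsc at -0.15 and -0.21 in the same order, each over PBS. Ctsz stood at -0.10 in CBE+GZ-667161 and 0.08 in CBE over PBS, with overlapping samples. The direction for these members therefore depends on which myeloid genes they are set against. Ctsf, Ctsb, Ctsk and Ctsa had mean log2 ratios below PBS with either list. With the pan-myeloid list they were below PBS in every sample of both groups. In CBE over PBS they stood at -1.98, -1.62, -1.53 and -1.38 in that order, and in CBE+GZ-667161 over PBS at -1.65, -1.41, -1.12 and -1.24. Both lists were themselves higher in the samples given CBE, and the values describe the samples without a test. The genes of the homeostatic list did not move alike. Over the CBE+GZ-667161, CBE and PBS samples, Trem2 had 2070, 1735 and 568 unscaled counts, and P2ry12 had 351, 185 and 339. Library totals ran from 2211446 to 4900602 in CBE+GZ-667161, from 1753626 to 3043318 in CBE and from 2414960 to 6499257 in PBS. These unscaled counts therefore compare the 2 genes within a group and give no fold change between groups.

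**Figure D4:**
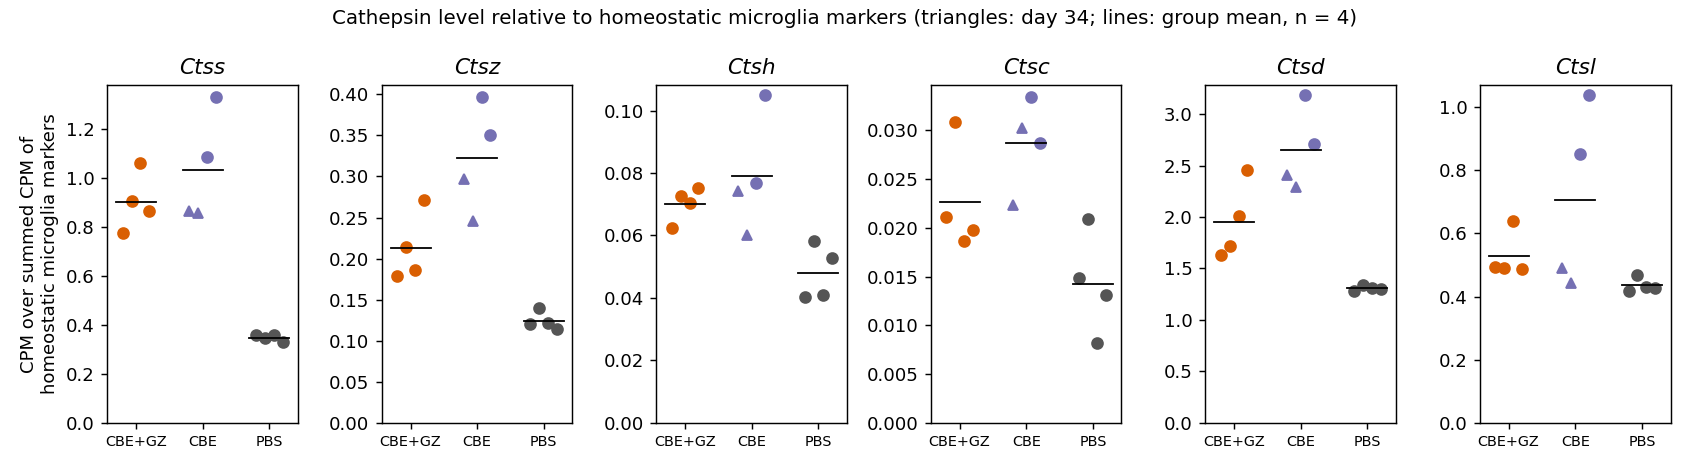
Level of 6 cathepsin genes divided by the summed level of the homeostatic microglia markers in the same sample, with triangles for day 34, circles for day 40 and lines for the mean of 4 samples. Ctss and Ctsd in CBE+GZ-667161 and CBE lie above all PBS samples, and the CBE samples of day 40 lie above those of day 34 for each gene shown except Ctsc.

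Of the remaining cathepsin genes in a list of 13, the table held Ctso and Ctsw. Ctso, a cysteine protease of broad expression, had 2, 8 and 13 counts over the CBE+GZ-667161, CBE and PBS samples, and Ctsw, known from T and NK cells, had 21, 8 and 14. Both were too low to test. Of the cathepsin inhibitors in a list of 9 cystatins and stefins, 3 were in the table and all 3 rose in CBE over PBS. Of all genes tested, 6.95% passed as higher there. Cst3, cystatin C, which is secreted and abundant in brain, averaged 3844 ± 457 CPM in CBE+GZ-667161, 4759 ± 620.1 CPM in CBE and 3373 ± 185 CPM in PBS, and rose by 0.50 ± 0.11 in CBE over PBS on the log2 scale (edgeR adjusted p = 0.0072). Cstb, stefin B, the inhibitor of cathepsins in the cytosol, averaged 122 ± 13.5 CPM in CBE+GZ-667161, 191 ± 30.0 CPM in CBE and 98.5 ± 9.09 CPM in PBS. It rose by 0.96 ± 0.13 in CBE over PBS (edgeR adjusted p = 9.4e-05) and was lower in CBE+GZ-667161 than in CBE (-0.65 ± 0.13, adjusted p = 0.026), a call that was lost without CBE+GZ-667161 replicate 2, 3 or 4, and likewise without CBE replicate 4 or 6. Cst7, cystatin F, an inhibitor made by immune cells that acts on the protease encoded by Ctsc among others, averaged 94.4 ± 34.5 CPM in CBE+GZ-667161, 128 ± 68.2 CPM in CBE and 2.32 ± 1.02 CPM in PBS. It rose by 5.48 ± 0.48 in CBE+GZ-667161 (adjusted p = 2.5e-06) and by 5.90 ± 0.48 in CBE (adjusted p = 3.7e-07), each over PBS, and was the only inhibitor of the 3 that passed in CBE+GZ-667161 over PBS.

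Of 6 tested lysosomal proteases outside the cathepsin family, 2 rose in CBE over PBS and 1 in CBE+GZ-667161 over PBS. Over all genes tested, 6.95% and 3.11% passed as higher in these comparisons. Lgmn, the asparaginyl endopeptidase legumain, which can cleave cathepsin precursors, averaged 362 ± 66.0 CPM in CBE+GZ-667161, 509 ± 86.8 CPM in CBE and 198 ± 3.81 CPM in PBS. It rose by 0.87 ± 0.14 in CBE+GZ-667161 (edgeR adjusted p = 0.0009) and by 1.36 ± 0.14 in CBE (adjusted p = 4.9e-06), each over PBS. The other gene that passed in CBE was Scpep1, a serine carboxypeptidase chosen for naming once its values had been seen (0.90, adjusted p = 0.0040), which was also lower in CBE+GZ-667161 than in CBE (-0.87, adjusted p = 0.032). Without PBS replicate 2, 4 of the 6 passed in CBE over PBS, and the call lower in CBE+GZ-667161 than in CBE was lost without the same samples as that of Cstb. Tpp1, tripeptidyl peptidase 1, Dpp7 and Cpq differed by 0.30, 0.72 and 0.61 in CBE over PBS and did not pass (adjusted p = 0.25, 0.072 and 0.089). The genes that carry lysosomal enzymes to their place had a list median of 0.010 in CBE over PBS. Of these 14 genes, 2 rose there, where 6.95% of all genes tested passed as higher. These were M6pr (0.34, adjusted p = 0.045), the cation-dependent mannose 6-phosphate receptor, and Nagpa (0.65, adjusted p = 0.032), which uncovers the mannose 6-phosphate tag, both likewise chosen with their values in view. Of the list, Nagpa alone passed in CBE+GZ-667161 over PBS (0.76, adjusted p = 0.020). These calls were weak: with any single sample left out, 0 or 1 of the 14 passed in CBE over PBS, 0 of them without PBS replicate 5 or CBE replicate 3. In CBE+GZ-667161 over PBS, 0 passed without PBS replicate 2 or 3 or without CBE+GZ-667161 replicate 3 or 4. In CBE over PBS, the sorting receptor Sort1 gave -0.17 ± 0.13 (adjusted p = 0.42) and Scarb2, the carrier of glucocerebrosidase, 0.22 ± 0.10 (adjusted p = 0.20). Lrp1 gave 0.23 ± 0.14 (adjusted p = 0.35) and Vps29 0.03 ± 0.11 (adjusted p = 0.9) in the same comparison with edgeR.

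None of the 4 tested transcription factor genes of lysosomal programmes passed in CBE over PBS with edgeR, DESeq2 or limma-voom, and 0 had an unadjusted p under 0.05. Zkscan3 differed by 0.10 ± 0.29 (edgeR adjusted p = 0.87) and Mitf by -0.34 ± 0.34 (adjusted p = 0.58) in CBE over PBS. Tfe3 averaged 54.0 ± 8.19 CPM in CBE+GZ-667161, 60.6 ± 6.02 CPM in CBE and 50.9 ± 5.03 CPM in PBS, and Tfeb 7.70 ± 1.10, 8.67 ± 1.88 and 7.43 ± 1.76 CPM in the same order. These proteins are regulated largely by where they sit in the cell, which RNA levels do not show. Of 7 genes that work with Ctss in loading MHC class II, 3 rose in CBE over PBS and 1 in CBE+GZ-667161 over PBS. Over all genes tested, 6.95% and 3.11% passed as higher in these comparisons. Ifi30, a lysosomal thiol reductase, rose by 1.92 ± 0.22 in CBE+GZ-667161 (edgeR adjusted p = 2.4e-05) and by 2.58 ± 0.22 in CBE (adjusted p = 4.4e-07), each over PBS. Cd74, whose product is the invariant chain that Ctss cleaves, averaged 17.8 ± 6.23 CPM in CBE+GZ-667161, 18.2 ± 7.92 CPM in CBE and 5.95 ± 4.72 CPM in PBS, and differed from PBS by 1.5 ± 0.43 in CBE+GZ-667161 (adjusted p = 0.073, not passing) and by 1.5 ± 0.44 in CBE (adjusted p = 0.039, passing). The third was H2-DMb1 in CBE (1.55, adjusted p = 0.017), also chosen with its values in view. Without PBS replicate 5, or with the day 40 CBE samples alone, 1 of the 7 passed as higher in CBE over PBS, and in CBE+GZ-667161 over PBS 2 passed without PBS replicate 3 or CBE+GZ-667161 replicate 2. H2-DMa and H2-Aa, at 0.54 ± 0.22 and 0.37 ± 0.56 in CBE over PBS, did not pass (adjusted p = 0.12 and 0.73).

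Partners and substrates of single cathepsins showed a mixed picture, with 2 of 5 tested genes higher in CBE over PBS. Of all genes tested, 6.95% were. Grn, the gene of progranulin, which cathepsins cut into granulins, averaged 267 ± 95.7 CPM in CBE+GZ-667161, 432 ± 51.8 CPM in CBE and 108 ± 6.16 CPM in PBS. It rose by 1.30 ± 0.18 in CBE+GZ-667161 (edgeR adjusted p = 0.00026) and by 2.0 ± 0.19 in CBE (adjusted p = 1.6e-06), each over PBS, close to the fold change of Ctsd. Psap, the gene of prosaposin, which Ctsd cleaves into the saposins that help lipid-degrading enzymes, rose by 0.38 ± 0.12 in CBE over PBS (adjusted p = 0.048). The count of 2 became 1 without any 1 of the 4 PBS samples or without CBE replicate 4 or 6. Neu1 and Glb1, the sialidase and beta-galactosidase that the product of Ctsa protects, gave 0.15 and 0.18 in CBE over PBS (adjusted p = 0.53 and 0.56). They did not pass where Ctsa did, and no difference between Ctsa and these genes was tested.

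Over the 12 samples, the genes whose log2 level followed a member most closely were found by the root mean square difference after each gene was centred on its own mean. For Ctss these were H2-D1 (0.11), Tyrobp (0.15) and Fcer1g (0.19), where the median over all tested genes was 1.21. For Ctsd they were C1qb (0.14), S100a6 (0.17) and C1qc (0.17), against a median of 0.95. For Ctsl they were Inpp5d (0.15), Srgn (0.16) and Tnfrsf1a (0.18), against 0.77, and for Ctsc Nckap1l (0.16), Rab20 (0.26) and Dock2 (0.26), against 0.98. None of the 3 nearest genes of any member was another cathepsin. With 10 members among the 12623 genes tested, this says little about whether the cathepsins moved together. All samples share the 3 groups, so any gene that differs between PBS and the CBE-treated samples by a like amount comes close by this measure.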

How the data were processed

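RNA of 12 whole-brain samples was measured by MARS-seq, which counts the 3' ends of transcripts. The authors deposited whole-number counts per gene symbol, with no normalization, and a separate table of log2 fold changes and adjusted p-values between groups, whose signs run from the PBS or CBE group over the other one. The submitters' processing notes name cutadapt, HISAT 0.1.6, HTSeq, DESeq2 and the mm10 build, without roles or order. The labels and files do not tell how unique molecular identifiers were treated. Of 16505 rows, 23 had symbols turned into dates and were left out (0.266 to 0.347% of the counts of a sample), which left 16482 genes. Totals ran from 1753626 to 6499257 counts, and low genes such as Ctsk and Ctsc have the least precise values.

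Genes were kept by filterByExpr (minimum count 10, minimum total 15), 12623 in all, scaled by TMM and fitted over all 3 groups with edgeR 4.0.16 (quasi-likelihood F-test; R 4.3.3), and p-values were adjusted by the Benjamini-Hochberg method over all tested genes, with 0.05 as the threshold. The ages within CBE were compared in a fit with 4 groups (13372 genes). Intervals are 95% intervals of the same fit. Log2 levels used a prior count of 2. Other fits used DESeq2 size factors, upper-quartile scaling, no filter, DESeq2 1.42.0, limma-voom (limma 3.58.1), Xist as a covariate, the replicate number as a block, 2 groups alone, CBE samples of 1 age, and each sample left out. For shares and ratios, the single-age settings were added after seeing the data. The steps were tested on simulated data. All 10 members are described, and for each pathway list the up to 4 most abundant genes are named, with the 3 nearest genes for 4 members. Scpep1, M6pr, Nagpa and H2-DMb1 were named in addition, with their values in view. The members and lists were chosen with earlier results of these data known. Positions come from GENCODE (mm10) and upstream windows from RefSeq (GRCm38.p6).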

Additional observations from a re-analysis of the deposited data

Results flagged for a closer look

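Ctss in CBE+GZ-667161 replicate 2 stood apart from its group, at 460 CPM where the other 3 samples had 737 to 786 CPM. Its gap to the nearest sample took 0.848 of the range of the group, above Dixon's 95% critical value for 4 samples. Of 30 combinations of member and group tested, this was the only one past that value, and chance alone flags about 1 in 20.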

How the results depend on the processing

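The 8 members called in CBE over PBS numbered 8 under every setting run. In CBE+GZ-667161 over PBS the count was 7, or 6 where Ctsa was lost with a sample left out, and between the ages of the CBE group it was 0 throughout. In CBE+GZ-667161 against CBE, where edgeR called 0 members, DESeq2 called 1 lower and leaving out single samples gave 0 to 2. Values near 0 changed sign. Ctsk in CBE+GZ-667161 over CBE was -0.012 with DESeq2 size factors, -0.0011 with upper-quartile scaling, -0.013 with DESeq2, -0.088 with limma-voom, -0.29 with day 40 CBE samples, 0.44 with day 34 samples, 0.51 with the Xist covariate, 0.31 with the replicate block, and -0.25 to 0.23 with single samples left out. Ctsf in CBE+GZ-667161 over PBS ran from -0.0028 to 0.18 and Ctsb between the ages from -0.27 to 0.0071 in the same way. The cause was not tested.

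Ratios to the pan-myeloid list in place of the homeostatic list, as log2 differences, were -0.31 in CBE+GZ-667161 over PBS, -0.27 in CBE over PBS and -0.036 in CBE+GZ-667161 over CBE for Ctsd. For Ctss they were 0.50, 0.27 and 0.23 in the same order. In CBE+GZ-667161 over PBS they were -0.31 for Ctsh, -0.60 for Ctsl and -0.10 for Ctsz, and in CBE over PBS -0.21 for Ctsc and -0.57 for Ctsh. With the homeostatic list, the day 40 CBE samples alone gave 1.17 for Ctsd and 1.79 for Ctss over PBS, and the day 34 samples alone gave 0.84 and 1.31.

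Replicate numbers were not taken as pairs in the main fit. Deviations of same-numbered samples correlated between -0.078 and 0.24. Samples of different numbers were not compared in this way, so these values cannot decide whether the numbers pair the samples. With the replicate block, 8, 7 and 0 members were called in CBE over PBS, CBE+GZ-667161 over PBS and CBE+GZ-667161 over CBE, as without it. Over all genes, the block gave 654 higher and 293 lower in CBE over PBS (877 and 510 without it) and 32 and 50 in CBE+GZ-667161 over CBE (56 and 105 without it). No paired analysis was possible between the ages of the CBE group because they share no replicate number. All-gene calls in CBE+GZ-667161 over CBE were 193 higher and 296 lower with DESeq2, 329 and 363 with day 40 CBE samples, 0 and 2 with day 34 samples, 9 and 22 with these 2 groups alone, 37 lower with the Xist covariate, and 2 to 111 higher and 3 to 164 lower with single samples left out. Lower calls in CBE over PBS were 99 with day 34 samples and 237 to 556 with single samples left out, and in CBE+GZ-667161 over PBS 108 with DESeq2 and 8 to 41 with single samples left out. Between the ages, DESeq2 called 107 higher and 133 lower and limma-voom 10 and 9. With 2 to 4 samples a group and few counts for Ctsk and Ctsc, modest differences in these genes were not detectable.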
